A study of Mus musculus with 4 samples.

Results

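The Hedgehog genes described here are Gas1, Cdon, Boc, Ptch1, Smo, Disp1, Sufu, Gli1, Gli2 and Gli3, in mouse retinal organoids with a degron on the m6A methyltransferase METTL3. Degradation of METTL3 protein was not measured in these data. Members were all positions that the deposited m6A site tables place in 1 of these 10 genes. They came to 1112 positions of 1076788 listed in any library, and to 10 of 20001 listed genes. The 10 genes were picked by name, but with earlier results of the comparison of dTAG13 with no dTAG13 already known, Gas1 in particular. The level, the number of sites, the coverage and the conversion rate under that comparison are therefore given as a description, and no call made on them is support for an effect.

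The organoids came from an Rx:GFP reporter line of mouse cells in which the endogenous Mettl3 gene carries a knocked-in FKBP12F36V-HA tag at its C-terminus. All 4 libraries carry this degron, so the controls carry it too and no library without it was analysed here. At day 6 of differentiation, 2 libraries had no dTAG13 (labelled 0hr, called untreated here) and 2 had received 125 nM dTAG13 for 8 h. dTAG13 is a small molecule that recruits proteins with this degron for degradation. The genotype text names Mettl3 in 1 sample and a Mettl gene of another number in each of the other samples, while the series text names METTL3 for the whole series. Nothing in the labels says whether replicates came from separate cultures, so their spread may be technical.

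N6-methyladenosine (m6A) is a methyl mark on adenosine in mRNA, placed mainly by the METTL3 and METTL14 complex and recognised by reader proteins that affect the stability and translation of the transcript. It was measured by GLORI, a chemistry that deaminates unmodified adenosine so that it is read as G, while m6A is still read as A. The level of a site is its A reads divided by the sum of its A and G reads, and the conversion rate of a gene is the share of its A read as G. In Hedgehog signalling, a secreted ligand binds Patched together with the co-receptors GAS1, CDON and BOC. This relieves the block on Smoothened, and the GLI transcription factors, otherwise restrained by SUFU, then act on target genes. Hedgehog signals from the ventral midline pattern the early eye and separate the optic stalk from the neural retina.

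The untreated libraries listed 335607 and 350462 sites and the dTAG13 libraries 220034 and 263069, with a median of 75 to 91 A and G reads per listed site. The lowest values in each table were a level of 10%, 5 reads with A and 15 reads in all. A position that a table does not list has no level: it can be unmethylated, below these limits or uncovered. Among markers of the retinal progenitor, 6 of 6 genes were listed in all 4 libraries, with coverage summing to 2029 and 2409 without and 1493 and 2100 with dTAG13. The 3 pluripotent markers Pou5f1, Nanog and Zfp42 were also listed in all 4 libraries, at summed coverage of 341 and 398 without and 332 and 356 with dTAG13. Of neuron markers 1 of 4, of forebrain markers 3 of 3, of pigment epithelium markers 3 of 4, of mesenchyme markers 0 of 3 and of endoderm markers 1 of 3 were listed in all 4 libraries. The part of other cell types in the results below was not tested. Reads summed over listed sites came to 52195855 and 54905380 without and 30102136 and 45966738 with dTAG13, and the part of this depth difference was not tested either.

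Fewer Hedgehog sites were listed with dTAG13, in proportion to the smaller tables of those libraries. Without dTAG13 the 10 genes had 361 and 357 listed sites, and with it 247 and 271. The means were 359 ± 2.83 and 259 ± 16.97 (SD, n = 2 each), a ratio of 0.721, and the groups did not overlap. With 2 libraries a group, an exact permutation test (two-sided) cannot go below p = 0.333, which is what it gave. Over all sites of the tables the ratio was 0.704. Per 100000 sites listed in the same library the members made up 107.6 and 101.9 without and 112.3 and 103.02 with dTAG13, a ratio of 1.03, so the fall in the members' number turns into a slight excess when it is taken relative to the whole table.

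The genes did not move alike. Cdon and Gli3, which had many sites, held most of the fall in number. Without both, a choice made after the data were seen, the ratio of listed sites was 0.819. The ratio was 0.530 in Cdon but 0.718 in Gli3, near that of all members. Without Cdon alone it was 0.788 and without Gli3 alone 0.723, so Gli3 did not differ from the members as a whole. Cdon, the co-receptor that binds Hedgehog ligand with Patched, had 99 and 86 sites without and 47 and 51 with dTAG13. Gli3, the GLI factor that acts largely as a repressor in the forebrain and eye, had 92 and 71 sites without and 58 and 59 with it. Sufu, the cytoplasmic inhibitor of GLI proteins, had 30 and 38 against 27 and 21 sites, and the co-receptor Boc 8 and 7 against 2 and 6. In these 4 of the 9 members listed in all 4 libraries, each dTAG13 library had fewer sites than either untreated one, and in 0 members it had more. Fewer sites in this sense were found in 44.6% and more in 4.53% of the 12520 genes that all 4 libraries list, so 4 of 9 is near the share over all genes.

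**Figure D1:**
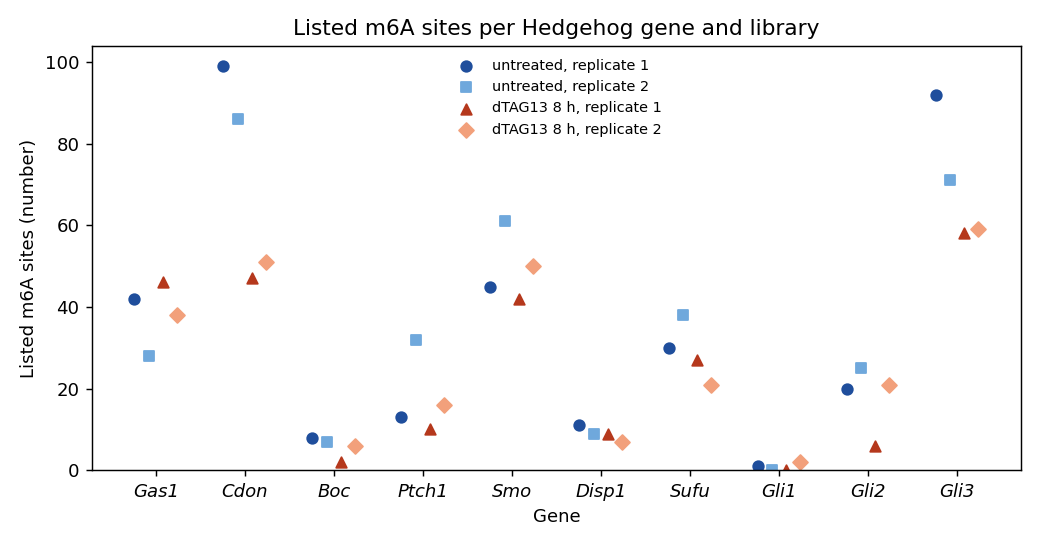
Number of listed m6A sites (y axis) in each of the 10 Hedgehog genes (x axis), 1 symbol per library, blue without and red or orange with dTAG13. Cdon stands at 99 and 86 sites without and 47 and 51 with dTAG13, whereas Gas1 has 42 and 28 without and 46 and 38 with it.

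Gas1 did not have fewer listed sites. This gene encodes a membrane-anchored co-receptor that binds Hedgehog ligand at the cell surface, and it had 42 and 28 listed sites without and 46 and 38 with dTAG13. The groups overlapped, and the ratio of the means was 1.20. Without Gas1, also a choice made after the data were seen, the other members had 319 and 329 sites against 201 and 233, a ratio of 0.6698. Smo, the transducer that Patched holds inactive, had 45 and 61 against 42 and 50 sites. Ptch1, the receptor and itself a Hedgehog target, had 13 and 32 against 10 and 16 sites, and Gli2, the main GLI activator, 20 and 25 against 6 and 21. Disp1, which releases lipid-modified Hedgehog ligand from the cells that make it, had 11 and 9 against 9 and 7 sites. In Smo, Ptch1, Gli2 and Disp1 the groups overlapped. Gli1, a target and a sensitive readout of the pathway, was listed with 1 site in untreated replicate 1 (95.5% of 44 reads) and 2 sites in dTAG13 replicate 2 (100% of 24 and 33 reads), and not in the other 2 libraries.

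Most Hedgehog sites were listed once. Of the 1112 positions, 1005 (90.4%) appear in 1 table alone. A further 92 appear in 2 tables, 13 in 3 and 2 in every table. Over all genes 91.4% of positions were listed in 1 library. Both untreated libraries shared 38 member sites: 10 in Cdon, 8 in Smo, 7 in Gas1, 6 in Gli3, 5 in Gli2 and 2 in Sufu. The dTAG13 libraries shared 17, and mixed pairs, with 1 library of each group, had 17 to 29 in common. Boc, Disp1 and Gli1, with 23, 36 and 3 positions, had no site listed in more than 1 library.

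The 2 positions listed in all 4 libraries both lay in Gas1, and they behaved differently. They are the only member sites with a level in every library. Positions are those of the deposited tables, whose genome build is not settled, so that exon, intron or UTR could not be assigned. The first position, 60322381 of chromosome 13 on the minus strand, lay 148 bases from the 3′-most listed site of Gas1. Its level was 56.9% of 851 reads and 59.7% of 894 reads without dTAG13, and 13.2% of 453 and 15.4% of 583 reads with it. The groups were far apart, with Wilson 95% intervals of 53.5 to 60.2% and 56.5 to 62.9% against 10.4 to 16.7% and 12.7 to 18.6%. These intervals, like those of all site levels below, cover counting error only. The mean was 58.3% ± 2.02 without and 14.3% ± 1.55 with dTAG13 (SD, n = 2 each), a difference of -43.96 percentage points. The dTAG13 levels were close to the listing limit of 10%.

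The second, at position 60322968, lay 735 bases from the 3′-most listed site and carried more reads than the first in every library. Its level was 18.7% of 1815 reads and 10.02% of 2636 reads without dTAG13, and 20.4% of 1314 and 13.9% of 1954 reads with it. The groups overlapped. Their means were 14.4% ± 6.16 without and 17.2% ± 4.58 with dTAG13 (SD, n = 2 each), and the difference of 2.78 points is smaller than either SD.

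A quasi-binomial model was fitted to the 2321 sites that every library lists on 20 or more reads. In it the first Gas1 site was called lower at an adjusted p under 0.05 and the second was not called. That is 1 of 2 member sites, while 2.2% of all tested sites were called lower and 0.0862% higher. Gas1 was chosen with this site known, so nothing is read from that count. When any 1 library was left out the difference at the first site stayed between -45.4 and -42.5 points, but the call was lost each time. Those fits, over 3529 to 4636 sites, called 0 sites at an adjusted p under 0.05 and 301 to 597 at an unadjusted p under 0.05.

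**Figure D2:**
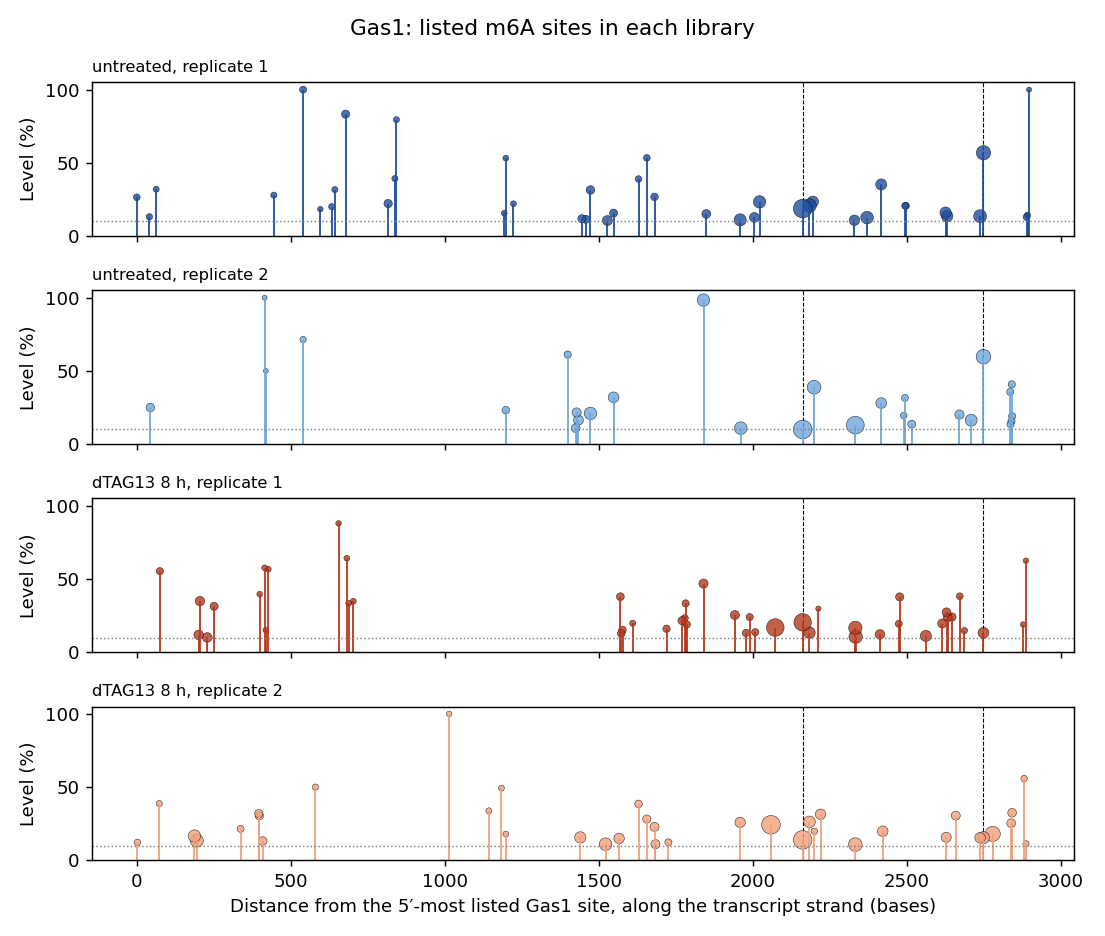
Listed sites of Gas1 in each library, by distance in bases from the 5′-most listed site along the transcript strand (x axis) and level in percent (y axis). Symbol area grows with the reads, dashed lines mark the 2 positions listed in all 4 libraries, and the dotted line is the 10% listing limit. The site marked on the right stands at 56.9% and 59.7% without and 13.2% and 15.4% with dTAG13.

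Other Gas1 sites were listed in 2 or 3 libraries. At position 60324590 the level was 100% of 140 reads and 71.4% of 98 reads without dTAG13, and neither dTAG13 library listed it. At position 60323932 it was 53.2% of 62 and 23.2% of 177 reads without dTAG13 and 17.9% of 67 reads in dTAG13 replicate 2. These positions show a lower level or no listing with dTAG13, but the untreated replicates were themselves far apart. Position 60323290 was at 98.4% of 627 reads in untreated replicate 2 and at 46.8% of 299 reads in dTAG13 replicate 1, and was not listed in the other 2 libraries. In untreated replicate 1 a listed site 9 bases away had 265 reads and a level of 15.1%. Position 60323474 was at 53.4% of 118 reads in untreated replicate 1 and 28.1% of 224 reads in dTAG13 replicate 2. Position 60323171 went the other way, at 11.0% of 590 and 25.9% of 402 reads in the same libraries. Of the 7 Gas1 sites that both untreated libraries listed, 3 more were below 40% and in neither dTAG13 library: 60322713 (35.2% and 28.0%), 60323582 (15.6% and 31.96%) and 60323657 (31.5% and 20.97%). Low sites with 1 untreated value and both dTAG13 values also occurred. Position 60322797 was at 12.95% of 1359 reads in untreated replicate 2 and at 16.6% of 729 and 10.7% of 756 reads in the dTAG13 libraries. At position 60322946 the level was 20.8% of 766 reads in untreated replicate 1 and 13.3% of 518 and 26.2% of 530 reads with dTAG13. The median level over all listed Gas1 sites was 20.7% and 22.4% without and 22.4% and 20.6% with dTAG13.

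Sites of high level that both untreated libraries listed were mostly not listed with dTAG13. Of 16 member sites with a mean untreated level of 40% or more, 14 were listed in neither dTAG13 library, 1 in 1 and 1 in both, the last being the first Gas1 site. Over all genes, 85.8% of 9150 such sites were listed in neither dTAG13 library, so the members' share is near that of all genes. The 7 sites at 90% or more were all unlisted in both dTAG13 libraries, against 80.5% over all genes. Most high sites of 1 untreated library were unlisted in the other too. Of 67 member sites at 40% or more on at least 50 reads in untreated replicate 1, untreated replicate 2 listed 16.4%. The dTAG13 libraries listed 5.97% and 10.4%. Of 59 such sites in untreated replicate 2, untreated replicate 1 listed 18.6% and each dTAG13 library 5.08%. Over all genes these shares were 14.1% and 13.8% without and 3.88 to 4.43% with dTAG13. Near-complete sites were no rarer among the sites that each dTAG13 library listed. Member sites at 90% or more made up 17.2% and 16.0% without and 18.6% and 17.0% with dTAG13. Over all genes this share was 15.8% and 14.5% without and 17.6% and 18.4% with it. At any level, 31 of the 38 sites of the untreated pair were listed in neither dTAG13 library, and 80.0% over all genes. In the other direction, 0 member sites were listed in both dTAG13 libraries at a mean of 40% or more, among 17 sites that both dTAG13 libraries listed. Of these 17, 7 were listed in neither untreated library, against 68.8% over all genes. Over all genes 2306 sites were listed in both dTAG13 libraries at a mean of 40% or more, of which 78.3% were listed in neither untreated library. At 10 to 40%, 17 of 22 member sites of the untreated pair were listed in neither dTAG13 library, and the background was 76.6%.

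Gli3, Smo and Cdon had high sites of this kind with other listed sites close by. The reads of a neighbour do not give those of the site itself. At Gli3 position 15901398 of chromosome 13 (plus strand), 3105 bases from the 3′-most listed site, the level was 99.3% of 140 reads and 99.4% of 155 reads without dTAG13. Neither dTAG13 library listed it, although sites 9 and 8 bases away were listed there with 236 reads at 30.1% in dTAG13 replicate 1 and 395 reads at 43.0% in dTAG13 replicate 2. Without dTAG13 the first of these neighbours was at 42.4% of 139 reads in untreated replicate 1. The second was at 45.7% of 162 reads in untreated replicate 2, near its level with dTAG13. At position 15901398 itself the Wilson intervals of the untreated levels overlapped. At position 15901542 the level was 88.5% of 96 and 98.1% of 106 reads without dTAG13, and at position 15904503, the 3′-most listed site, it was 97.4% of 38 and 96.2% of 52 reads. Both were unlisted with dTAG13, and neither had another listed site within 25 bases there.

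The 3 low-level Gli3 sites that both untreated libraries listed were in neither dTAG13 library. They were position 15901764 at 21.3% and 11.3%, position 15904014 at 11.2% and 17.2% and position 15904305 at 18.3% and 26.8%. Other low sites had 1 untreated and both dTAG13 values. Position 15902259 was at 12.9% of 170 reads in untreated replicate 1 and at 23.6% of 161 and 13.8% of 334 reads with dTAG13. Position 15903479 was at 30.5% of 200 reads in untreated replicate 1 and at 14.8% of 237 and 32.1% of 165 reads with dTAG13. At both positions the single untreated value lay between the dTAG13 values or below them. Position 15903165 was higher with dTAG13, at 18.0% of 723 reads in untreated replicate 1 and 84.4% of 122 reads in dTAG13 replicate 2. Of the 256 Gli3 positions, 200 lay within the last 5000 bases of a listed span of 266107 bases. The median Gli3 level was 26.4% and 23.9% without and 26.8% and 24.7% with dTAG13.

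Smo had the same pattern at its deepest high site. Position 29760111 of chromosome 6 (plus strand) was at 93.7% of 457 reads and 99.4% of 353 reads without dTAG13. Neither dTAG13 library listed it, while a site 11 bases away was listed in both, with 141 reads at 18.4% in dTAG13 replicate 1 and 75 reads at 57.3% in dTAG13 replicate 2. Position 29735958, 25346 bases upstream of the 3′-most listed site, was at 98.4% of 125 and 86.2% of 181 reads without dTAG13 and unlisted with it. At position 29736279 the level was 47.4% of 38 and 27.7% of 148 reads without dTAG13 and 14.6% of 260 reads in dTAG13 replicate 2. These 3 sites were lower or unlisted with dTAG13. Smo sites listed in 1 library of each group moved both ways. Position 29754799 was at 12.4% of 314 reads in untreated replicate 1 and 80.0% of 85 reads in dTAG13 replicate 1. Position 29756813 was at 45.2% of 84 and 10.6% of 218 reads in the same libraries. Position 29759992 was at 56.2% of 121 reads in untreated replicate 2 and 12.0% of 133 reads in dTAG13 replicate 1.

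Of the 6 Smo sites below 40% that both untreated libraries listed, 4 were in neither dTAG13 library. The 2 Smo sites with the most reads were low, and 1 of them was listed with dTAG13. Position 29760798 was at 17.5% of 2765 reads in untreated replicate 1 and at 17.98% of 1947 and 16.7% of 2611 reads in the dTAG13 libraries. It was not listed in untreated replicate 2. Position 29760756 was at 11.6% of 2928 and 15.7% of 3887 reads without dTAG13 and unlisted with it. Position 29759566 was at 10.9% of 221 reads in untreated replicate 2 and at 36.9% of 84 and 18.1% of 304 reads with dTAG13, both above the single untreated value.

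Cdon had 4 of the 16 high sites, all unlisted with dTAG13, and 3 of them differed widely between the untreated replicates. At position 35415600 of chromosome 9 (plus strand) the level was 97.7% of 44 and 100% of 233 reads. In dTAG13 replicate 1 a site 20 bases away was listed with 266 reads at 11.3%. At position 35418732 the level was 66.3% of 460 reads in untreated replicate 1 and 19.0% of 379 reads in untreated replicate 2. A site 2 bases away was listed in dTAG13 replicate 2 with 553 reads at 22.4%. At position 35415980 it was 100% of 38 and 20.3% of 197 reads, and at position 35382331 it was 19.5% of 41 and 60.9% of 23 reads. Of the 6 Cdon sites below 40% that both untreated libraries listed, 5 were in neither dTAG13 library. The sixth, at position 35417366, was at 27.4% of 73 and 36.4% of 44 reads without dTAG13 and at 19.2% of 52 reads in dTAG13 replicate 1.

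The median Cdon level was higher with dTAG13, at 41.8% and 39.2% against 27.4% and 26.3%, while the number of listed sites was lower. Over all genes the median level of listed sites was 28.2% and 27.0% without and 29.3% and 29.3% with dTAG13. The sites behind the medians differ, since 237 of the 259 Cdon positions were listed in 1 library. Cdon sites under 40% numbered 67 and 65 without and 23 and 26 with dTAG13. Sites at 90% or more numbered 12 and 11 without and 15 and 8 with it. The loss of listed Cdon sites was thus larger at low than at near-complete levels. Smo, Sufu and Boc also had a higher median level in both dTAG13 libraries. Without dTAG13 it was 18.9% and 16.5% in Smo, 28.5% and 31.4% in Sufu and 39.5% and 57.1% in Boc. With it these were 27.0% and 20.8%, 76.4% and 46.3%, and 100% and 80.5%. Gli2 went the other way, from 97.8% and 74.4% to 63.7% and 51.0%. In the remaining members listed in all 4 libraries the groups overlapped. That makes 4 members higher, 1 lower and 4 overlapping. The share of all genes with such a shift in median level was not computed, so nothing is read from these counts. The Boc medians with dTAG13 rested on 2 and 6 listed sites.

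**Figure D3:**
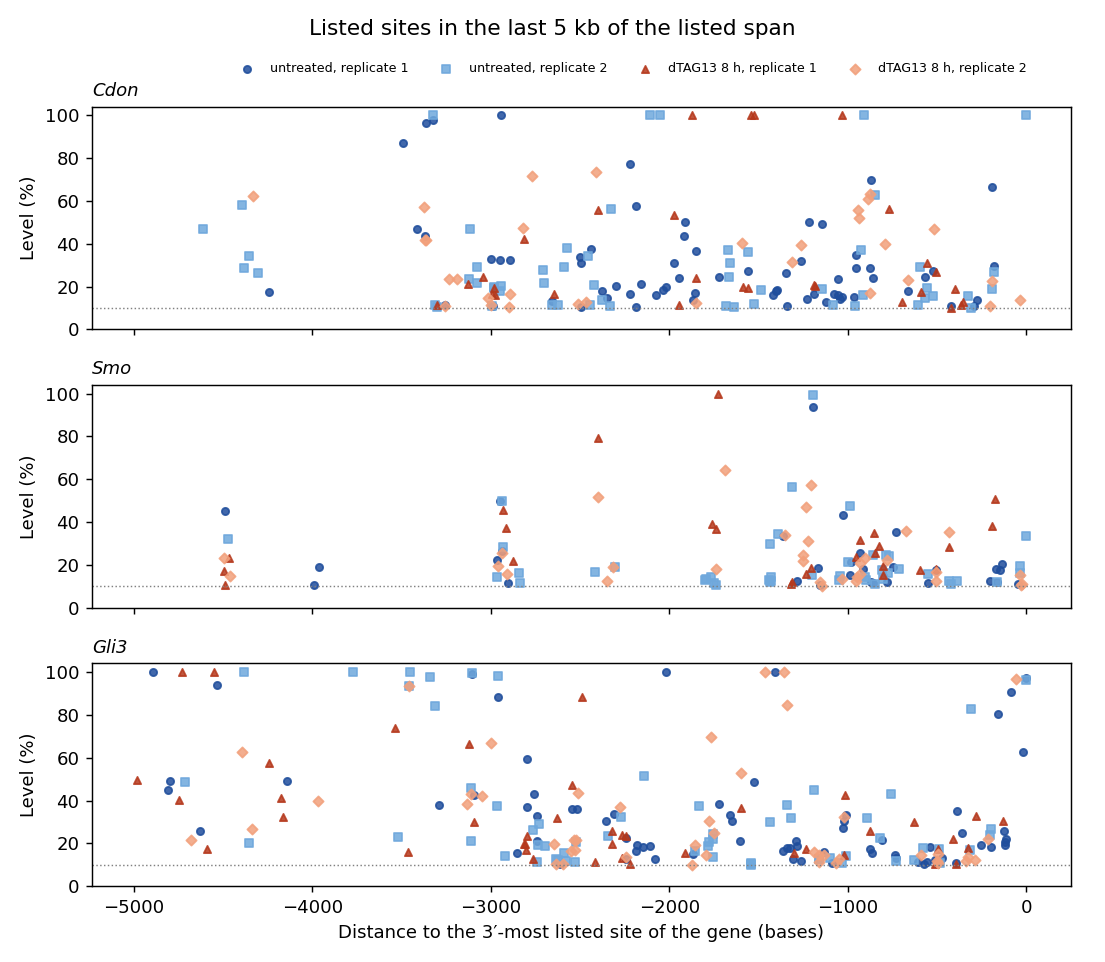
Level in percent (y axis) of listed sites in the last 5000 bases of the listed span of Cdon, Smo and Gli3, by distance in bases to the 3′-most listed site of the gene (x axis), 1 symbol per site and library. Near-complete sites of the untreated libraries in Smo (93.7% and 99.4%) and Gli3 (99.3% and 99.4%) have no dTAG13 symbol at the same distance.

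Gli2 had 4 high sites within 2935 bases of its 3′-most listed site on chromosome 1 (minus strand). At position 118763744 the level was 87.96% of 191 and 78.8% of 288 reads without dTAG13 and 53.9% of 102 reads in dTAG13 replicate 2. The Wilson interval of the dTAG13 value, 44.3 to 63.3%, lay below those of both untreated values, 82.6 to 91.8% and 73.7 to 83.1%. At position 118762315 the level was 100% of 52 and 97.4% of 78 reads without dTAG13, at position 118764823 it was 100% of 21 and 74.4% of 43 reads, and at position 118764862 it was 95.7% of 23 and 20.0% of 50 reads. None of these 3 was listed with dTAG13, and no site within 25 bases was listed there either. Position 118763260 had the same level in 1 library of each group, 95.1% of 41 reads in untreated replicate 2 and 95.0% of 20 reads in dTAG13 replicate 2.

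Sufu had 1 site listed in both untreated libraries at a mean of 40% or more, at position 46474591 of chromosome 19 (plus strand), with 22.5% and 67.5% of 40 reads each. Neither dTAG13 library listed it. Position 46385484 went the other way, at 13.7% of 190 reads in untreated replicate 1 and 100% of 167 reads in dTAG13 replicate 2. At position 46385640 the level was 62.8% of 86 reads and 46.3% of 121 reads in the same 2 libraries. Position 46476594 was at 49.4% of 235 and 13.3% of 83 reads in those libraries. Position 46476889 was higher with dTAG13, at 22.1% of 68 reads in untreated replicate 2 and 65.8% of 120 reads in dTAG13 replicate 1. The 12 Sufu sites at 90% or more in dTAG13 replicate 1 compare with 3 and 3 without dTAG13 and 5 in dTAG13 replicate 2, and 96 of 106 Sufu positions were listed in 1 library.

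Ptch1 had 2 positions listed in more than 1 library, both in untreated replicate 1 and dTAG13 replicate 2. Position 63681402 of chromosome 13 (minus strand) was at 100% of 52 reads without and 16.8% of 292 reads with dTAG13. Position 63657626 was at 95.7% of 23 reads without and 74.1% of 108 reads with dTAG13. Both were lower in the dTAG13 library, with 1 library on each side. Disp1 sites were mostly near-complete in the untreated libraries, with 10 of 11 and 6 of 9 sites at 90% or more, against 5 of 9 and 4 of 7 with dTAG13. No Disp1 position was listed in more than 1 library, so these are different sites. Over all genes the share at 90% or more was 15.8% and 14.5% without and 17.6% and 18.4% with dTAG13. The Disp1 conversion rate in untreated replicate 1 was 89.9%, the lowest of any member in any library, and its part in the near-complete sites was not tested. The deepest Boc site had 143 reads at 10.5% in untreated replicate 1, and the 2 Boc sites of dTAG13 replicate 1 rested on 32 and 17 reads.

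**Figure D4:**
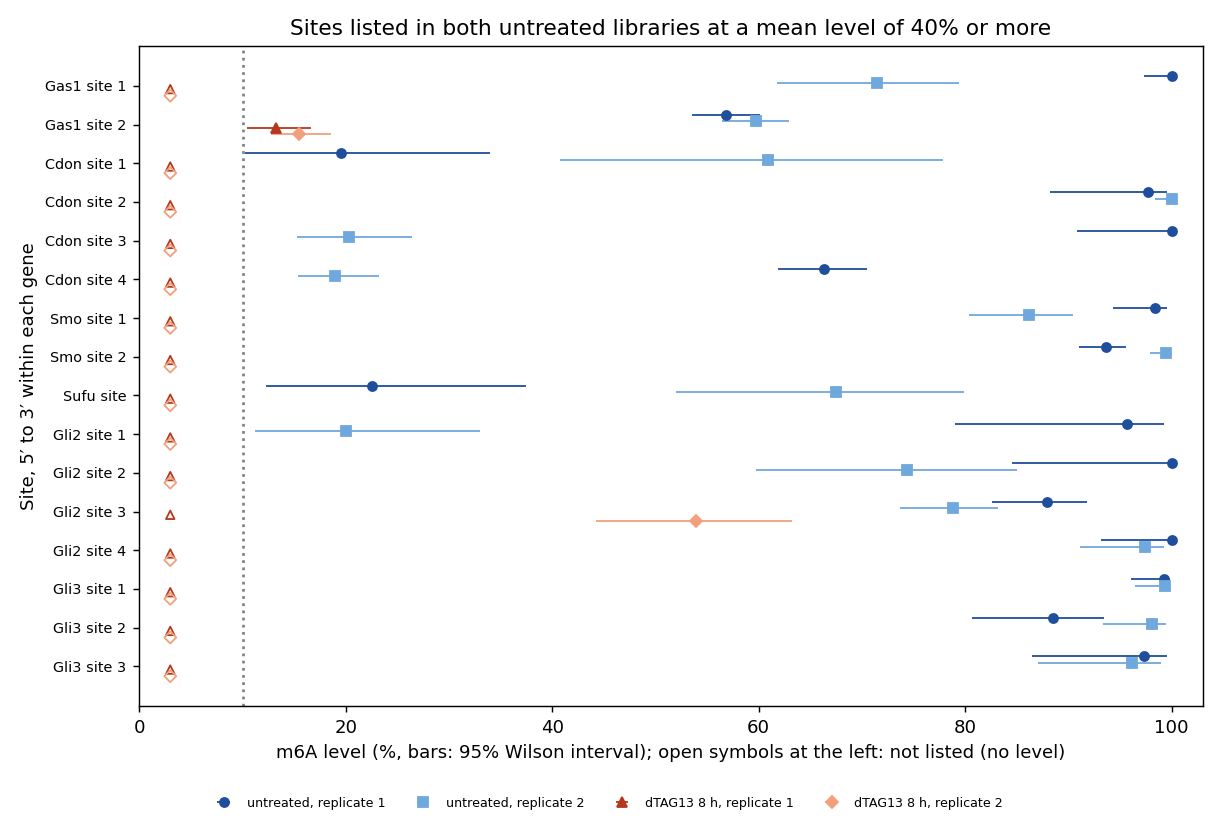
Level in percent (x axis, bars are Wilson 95% intervals) of the 16 member sites that both untreated libraries listed at a mean of 40% or more, ordered 5′ to 3′ within each gene (y axis). Open symbols at the left edge mark libraries that did not list the site and carry no level. Position 60322381 of Gas1 is the single one with a level in both dTAG13 libraries (13.2% and 15.4%).

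Replicates differed at many sites within a group. Of the 38 member sites shared by the untreated libraries, 15 (39.5%) had Wilson intervals that did not overlap, with a median absolute difference of 9.79 points and a largest one of 79.7 points. Over all genes 43.0% of 25086 shared sites were apart in this way. In the dTAG13 pair it was 10 of 17 member sites (58.8%), and 38.6% over all genes. The spread between replicates therefore exceeded counting error at a large share of sites, in Hedgehog genes as elsewhere.

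Recovery of deep untreated sites gave a similar picture. Untreated replicate 1 had 276 member sites on 50 reads or more. Untreated replicate 2 listed 10.5% of them (Wilson 95% interval 7.42 to 14.7%), dTAG13 replicate 1 listed 6.88% (4.45 to 10.5%) and dTAG13 replicate 2 listed 9.06% (6.21 to 13.03%). Untreated replicate 2 had 273 such sites. Of these, 12.5% (9.05 to 16.9%) were found again without dTAG13, and 5.86% (3.64 to 9.31%) and 5.49% (3.36 to 8.87%) with it. Over all genes the same shares were 11.1% without and 6.00% and 6.38% with dTAG13 for untreated replicate 1, and 10.7%, 5.74% and 6.17% for untreated replicate 2. The dTAG13 shares were the lower ones in each case. They were not scaled to the number of sites each target library listed, which was 220034 and 263069 with dTAG13 against 335607 and 350462 without. The part of these smaller numbers in the lower shares was not tested. The intervals treat each site as an independent draw, although many sites have another listed site close by. They hold no spread between libraries, so nothing is read from whether they overlap. The untreated background is a single library each time, so no test over libraries was made.

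Listed sites of these genes lay close together. In each library 52.4 to 59.1% of member sites had another listed site of the same gene within 25 bases, against 48.0 to 53.2% over all genes. The median level difference between such neighbours was 7.94 to 9.43 points in the members and 6.43 to 7.30 points over all genes. Reads that span both positions are counted at each, and how many do was not measured.

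Coverage of the members was compared through the gene coverage that the tables give per gene and library, which is not normalised to depth and was not compared between genes. In these bulk samples, fewer cells of a type and less RNA per cell cannot be told apart. Gas1 had coverage of 535 and 743 without and 424 and 476 with dTAG13, lower in both dTAG13 libraries. Its log2 change, centred on the median gene, was -0.41 ± 0.24 (SE, n = 2 per group), and -0.20 without untreated replicate 2 and -0.62 without untreated replicate 1. Boc, at 74.2 and 48.96 against 31.1 and 46.8, and Sufu, at 129.9 and 103.05 against 76.9 and 88.3, also lay lower in both dTAG13 libraries, with log2 changes of -0.58 ± 0.28 and -0.41 ± 0.24. Without untreated replicate 1 these were -0.25 and -0.21, and without untreated replicate 2 -0.91 and -0.60. These are 3 of 9 members with no overlap in this direction, against 28.1% of all genes.

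Ptch1 was the single member with higher coverage in both dTAG13 libraries, at 68.2 and 59.9 against 71.3 and 85.3, as in 10.1% of all genes. Its centred log2 change was 0.37 ± 0.21. Cdon (134 and 135 against 111 and 136) and Gli3 (153 and 161 against 150 and 182) had centred log2 changes of -0.04 ± 0.20 and 0.16 ± 0.20, and the part of coverage in their number of sites was not tested. Smo (341 and 376 against 231 and 369), Gli2 (92.5 and 74.9 against 71.5 and 111) and Disp1 (69.7 and 45.3 against 52.4 and 107) overlapped between groups. Gli1 was at 37.0 in untreated replicate 1 and 36.8 in dTAG13 replicate 2.

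With limma on centred log2 coverage, 0 of 9 members and 0 of 12520 genes (0%) were called at an adjusted p under 0.05. At an unadjusted p under 0.05 there were 0 of 9 members and 1595 genes (12.7%). The median log2 change was -0.04 over the 9 members and -0.07 over all genes, with 5 of 9 members and 56.7% of genes below 0. Without centring the median log2 change over all genes was -0.15, and limma called 15 genes with 0 members among them. The direction of each of the 9 members was the same with and without centring.

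The conversion rate was higher in both dTAG13 libraries in 6 of 9 members and lower in 0, against 40.9% and 6.05% of all genes. It went from 96.6% and 97.0% to 97.7% and 97.7% in Cdon, from 96.5% and 96.1% to 97.4% and 97.2% in Ptch1, and from 96.0% and 95.9% to 96.7% and 97.2% in Smo. It went from 95.9% and 96.7% to 96.97% and 97.1% in Gli3, from 92.5% and 93.2% to 95.3% and 95.4% in Gli2, and from 89.9% and 94.6% to 96.9% and 97.3% in Disp1. In Gas1 it was 96.1% and 96.8% without and 96.1% and 97.1% with dTAG13, and the groups overlapped, as they did in Boc and Sufu. The median difference was 0.991 percentage points over the 9 members and 0.666 over all genes, and its part in the number of listed sites was not tested.

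**Figure D5:**
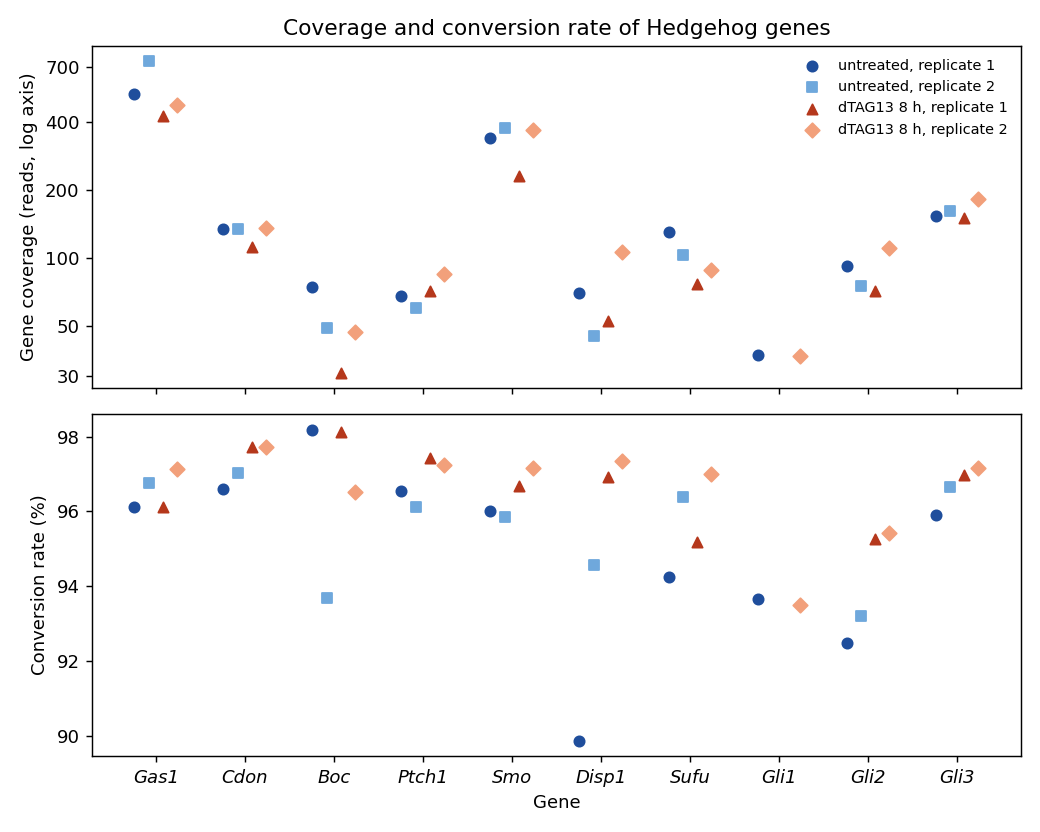
Gene coverage in reads (top, log axis) and conversion rate in percent (bottom) of the 10 Hedgehog genes (x axis), 1 symbol per library. Gas1 coverage is 535 and 743 without and 424 and 476 with dTAG13, and the conversion rate of Gli2 is 92.5% and 93.2% without and 95.3% and 95.4% with it.

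Beyond the 10 members, a list of 52 other pathway genes was described the same way. Of these, 39 were listed in all 4 libraries and 6 in none, among them the ligand genes Shh and Dhh. In 23 of the 39, both dTAG13 libraries had fewer listed sites than both untreated ones, and in 0 they had more, against 44.6% and 4.53% of all genes. By role, these were 4 of 4 receptors and surface proteins, 7 of 13 cilium and Smo signalling genes, 7 of 13 kinases and ligases of Gli processing, 5 of 7 targets and 0 of 2 ligand genes. Coverage was lower in both dTAG13 libraries in 14 of the 39 and higher in 5, against 28.1% and 10.1% of all genes. The conversion rate was higher in 19 and lower in 2, against 40.9% and 6.05% of all genes. For coverage, limma called 0 of them at an adjusted p under 0.05 and 1 at an unadjusted p under 0.05. Of 7 tested sites in 5 of the genes, the quasi-binomial model called 1 lower at an adjusted p under 0.05, against 2.2% of all tested sites. It lay at position 28391679 of chromosome 17 (plus strand) in Scube3, which encodes a secreted protein of a family that helps release Hedgehog ligand. It was at 97.9% of 48 and 98.99% of 99 reads without and 45.8% of 59 and 33.5% of 155 reads with dTAG13. The list was chosen with earlier results of these data known, so nothing is read from 1 call among 7 sites. With the replicate number as a block the model called 0 sites over the whole table.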

How the data were processed

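The members and gene lists were chosen with earlier results of these data known. The authors deposited 1 site table per library with counts of A and G reads and of A reads, the level as a fraction, the conversion rate as a fraction, the gene coverage signal and a p-value per site, per the file headers. The deposited names show that second mates were trimmed of adapters and molecular identifiers; aligner, caller and collapsing of duplicates are not given in the sources used here. The submitters' processing notes name mm10, but of the 10 members only Smo had all its sites inside its interval in a RefSeq table of that assembly and 6 had none. The build is thus unsettled, positions are printed as deposited, and sequence, exon and UTR were not assigned. Groups came from the sample titles.

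Levels were computed from the deposited counts, with Wilson 95% intervals that cover counting error only, since PCR duplicates may remain. Site changes were fitted over the 2321 sites with at least 20 reads in all 4 libraries with a quasi-binomial model per site, its dispersion moderated by limma 3.58.1 (R 4.3.3) and held at 1 or above, and coverage with limma on median-centred log2 values, both adjusted by Benjamini-Hochberg over the whole table at 0.05. On simulated data with 200 changed features, the site model recovered 51.5% of changes of 40 points among 2321 sites, with 6 false calls, and limma 98.5% of log2 changes of 2 among 12520 genes, with 21 false calls. In the site simulation the spread between replicates was set in advance and the same for all sites, not taken from these data. Its figures therefore need not hold for the real replicates. The simulated coverage changes were larger than that of any member, the largest being -0.58 in Boc. Recovery of coverage changes of the members' size was not simulated. Sites described singly were those listed in all 4 libraries and those at a mean of 40% or more in both libraries of a group; the others named were chosen after their values were seen. The search for neighbours within 25 bases was also chosen after the data were seen. Alternatives were leaving out each library, stricter sites, other tests, centring and a replicate block.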

Additional observations from a re-analysis of the deposited data

How the results depend on the processing

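The ratio of listed Hedgehog sites, 0.721, ran from 0.688 to 0.755 when 1 library was left out and was 0.741 with at least 50 reads, 0.748 at levels of 20% or more and 0.790 at 50% or more. It reversed to 1.03 per 100000 sites listed in the library. The median rise in conversion rate, 0.991 points, ran from 0.921 to 1.14 when 1 library was left out. The quasi-binomial model called 53 sites over the whole table, 0 in each of the 4 fits with 1 library left out (301 to 597 at an unadjusted p under 0.05; an arm of 1 library is then assumed to vary like the other), and 531 when replicates were summed for Fisher's exact test, which ignores their spread. With the replicate number as a block it called 0 sites (196 at an unadjusted p under 0.05), and the first Gas1 site was no longer called. The replicate numbers did not pair the libraries. The difference of replicate 1 minus replicate 2 was taken within each group and correlated between the groups. That correlation was 0.00 for coverage and 0.02 for site level. The change at the second Gas1 site, 2.78 points, ran from -1.57 to 7.14 when 1 library was left out, below 0 without untreated replicate 2 (-1.57) and without dTAG13 replicate 1 (-0.45), and Fisher's exact test called it. Limma on coverage called 0 genes with centring, under the block, with each library left out, with a minimum coverage and with a pseudocount, and 15 without centring. The log2 change in coverage moved with single libraries left out, from -0.62 to -0.20 in Gas1, -0.91 to -0.25 in Boc, -0.60 to -0.21 in Sufu, -0.35 to -0.10 in Smo, -0.12 to 0.01 in Cdon, 0.15 to 0.83 in Disp1, 0.25 to 0.49 in Ptch1, 0.07 to 0.22 in Gli3 and 0.00 to 0.36 in Gli2. Boc, Disp1 and Gli1 had no site listed in more than 1 library, so no level of theirs could be compared.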
